A study of Mus musculus with 69 samples.

Results

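Hand1, Hand2, Tbx5, Tbx20, Nkx2-5, Isl1, Foxf1, Gata4 and Mef2c are 9 transcription factor genes of the lateral plate and the early heart, and they were taken by symbol from the 55367 genes of the count table. Bulk RNA sequencing of poly-A RNA measured them in 69 libraries from 23 conditions with 3 replicates each. All cells came from the mouse embryonic stem (mES) cell line E14tg2A. The study asked how cells without p53 and wild-type (WT) neighbours affect each other in gastruloids, which are aggregates of mES cells that develop parts of the early embryo's body plan after a pulse of Wnt agonist.

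The vertebrate lateral plate is the mesoderm at the sides of the embryo, and its anterior part forms the heart. Hand, T-box, NK, LIM-homeobox, GATA and MEF2 factors act together in heart progenitors, and Foxf1 marks the inner layer of the lateral plate, the splanchnic mesoderm. None of these genes belongs to the heart alone. Gata4 is also active in endoderm, Hand1 in trophoblast and extraembryonic mesoderm, Isl1 in motor neurons, and Mef2c in endothelium, muscle and neural crest.

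WT–mCherry cells carried an H2B-mCherry reporter, and WT–emiRFP cells an H2B-emiRFP670 reporter. p53KO–emiRFP cells were a daughter clone of WT–emiRFP with a frameshift insertion in Trp53. Each of the 3 was a single clone, so a difference between genotypes is also a difference between clones. At 0 h the clones were cultured as mES cells. WT + WT gastruloids were mosaics seeded with 150 WT–mCherry and 150 WT–emiRFP cells, and WT + p53KO gastruloids with 150 WT–mCherry and 25 p53KO–emiRFP cells. From both mosaics the 2 populations were separated by FACS at 48, 72, 96, 120 and 144 h.

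Libraries held 26722541 to 72981570 counts. Trp53, the mutated gene, had 1506 to 2589 normalized counts in p53KO–emiRFP libraries and 13902 to 27511 in WT libraries. H2bc14 and H2bc21, histone genes with RNA mostly in the emiRFP clones, served as 2 estimates of emiRFP-clone RNA in the sorted WT–mCherry libraries. The estimates differed, and a change of either gene in WT–mCherry cells themselves was not tested. In WT–mCherry mES cells, which had no emiRFP partner, H2bc21 had 8.36 to 29.0 normalized counts, against 493 to 649 in WT–emiRFP mES cells. H2bc14 had 6.20 to 8.21 against 9353 to 10517, so the H2bc21 estimate held relatively more RNA of WT–mCherry cells' own. Relative to the emiRFP cells sorted from the same mosaic, H2bc14 reached at most 2.12% beside WT cells, and beside p53KO cells 7.46%, 3.01% and 6.66% at 120 h and 16.9%, 2.39% and 9.23% at 144 h in replicates 1, 2 and 3. H2bc21 gave 14.1%, 11% and 29.1% at 120 h and 23.5%, 7.61% and 23.7% at 144 h beside p53KO cells. At 144 h it gave 9.61%, 3.65% and 10.9% beside WT cells. Of 23 cardiomyocyte genes 9 to 10 had a mean of at least 100 normalized counts per population at 144 h and 4 to 5 a mean under 5. Their summed mean level was 2780 to 4392, and 4836 to 6768 in mES cells. The troponin gene Tnnt2 averaged 32.2 to 76.2 at 144 h, and Nppa, Pln and Csrp3 were among the genes under 5.

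Promoters are shown for 2 genes that were higher in p53KO–emiRFP cells at 120 h, Hand2 and Isl1, and for the Mef2c start site that had a match to the p53 half-site. RefSeq (GRCm38.p6) gave 7 windows of 250 bases before a start site, for Hand2, Tbx20, Mef2c, Isl1 and Nkx2-5. Each sequence reads toward the gene's start, and capitals mark motif matches on either strand.

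Hand2, chr8:57320733-57320982, plus strand: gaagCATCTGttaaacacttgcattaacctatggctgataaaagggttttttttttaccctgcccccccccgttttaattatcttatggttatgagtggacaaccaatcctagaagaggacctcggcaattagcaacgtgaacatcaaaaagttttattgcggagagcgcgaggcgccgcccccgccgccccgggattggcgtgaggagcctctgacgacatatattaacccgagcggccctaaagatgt
Isl1, chr13:116309689-116309938, minus strand: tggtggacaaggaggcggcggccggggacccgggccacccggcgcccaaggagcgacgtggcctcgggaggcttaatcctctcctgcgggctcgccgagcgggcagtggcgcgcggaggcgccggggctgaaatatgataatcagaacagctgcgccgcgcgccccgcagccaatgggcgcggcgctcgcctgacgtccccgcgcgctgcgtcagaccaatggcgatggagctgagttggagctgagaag
Mef2c, chr13:83503784-83504033, plus strand: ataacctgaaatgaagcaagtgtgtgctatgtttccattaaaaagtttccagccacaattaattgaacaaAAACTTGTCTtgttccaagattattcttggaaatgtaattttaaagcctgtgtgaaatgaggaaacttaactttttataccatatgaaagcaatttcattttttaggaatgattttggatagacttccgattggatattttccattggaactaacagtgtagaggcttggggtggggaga

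The Hand2 window held the E-box letters CATCTG, 246 bases before the start, which 14.4% of 32851 promoters of that length also held. The Mef2c window held a p53 half-site match 180 bases before the start, found in 7.13% of promoters, and another Mef2c window held an E-box. The Isl1 window had no match to any motif searched. No window held the site of GATA factors, spelled GATAAG and found in 6.55% of promoters. The T-box half-site AGGTGTGA, in 1.12% of promoters, was also without a match. The same held for the NK2 site TNAAGTG (10.1% of promoters), for the forkhead site GTAAACA (3.17%) and for the MEF2 site (3.20%). Both strands were searched. A missing match says only that those letters are not in these bases.

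Normalized counts are counts divided by a library's size factor. On this scale Gata4 had the highest level among the 9 genes in most libraries, from 132 to 1398. Hand1 ranged from 10.3 to 363, Foxf1 from 1.05 to 340, Mef2c from 3.14 to 200 and Isl1 from 20.6 to 168. Tbx20 ranged from 12.5 to 86.7, Tbx5 from 1.12 to 49.8 and Nkx2-5 from 3.14 to 39.7. Hand2 was the lowest, with a count of 0 in 5 libraries and at most 37 counts. A count of 0 allows up to 3 counts, and such limits cover counting error only. Per kilobase of exon, Hand1 led in p53KO–emiRFP mES cells with 172 normalized counts, Foxf1 in p53KO–emiRFP cells at 120 h with 128, and Gata4 in WT–mCherry cells beside p53KO cells at 144 h with 248.

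**Figure D1:**
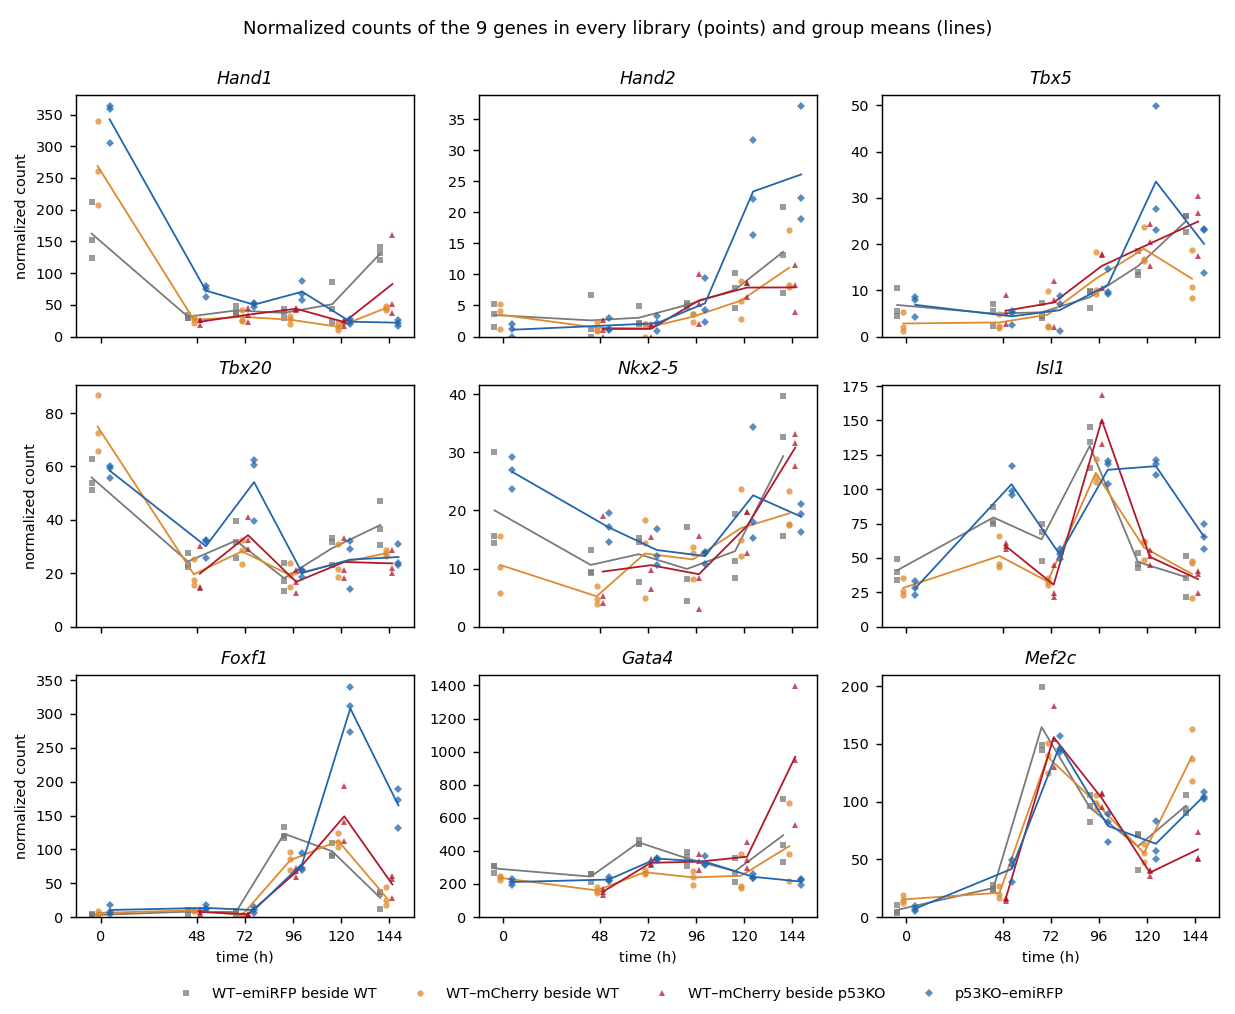
Normalized counts (vertical axes) of the 9 genes against time in hours, with 1 point per library and lines through group means, in 4 sorted populations and, at 0 h, the 3 mES cell clones. Foxf1 in p53KO–emiRFP cells peaked at 273 to 340 at 120 h, and Gata4 in WT–mCherry cells beside p53KO cells reached 559 to 1398 at 144 h.

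Over time the 9 genes did not come on together. Each step between consecutive time points was tested with edgeR's quasi-likelihood test in 1 fit of all libraries, and all 9 genes passed the low-count filter there. In WT cells of WT + WT gastruloids, taken as the mean of both clones, 6 genes changed by 48 h, 5 by 72 h, 5 by 96 h, 4 by 120 h and 7 by 144 h, where 67.7%, 60.4%, 52.4%, 52.5% and 43.3% of all genes tested changed. In p53KO–emiRFP cells the counts were 4, 4, 4, 4 and 3, where 59.5%, 46.4%, 44.6%, 35% and 22.7% of genes changed. Leaving out 1 replicate lost 12 of the 27 calls in WT cells and 5 of the 19 in p53KO–emiRFP cells, and 18 to 20 and 16 to 18 calls then passed. In WT cells, leaving out replicate 1 lost Nkx2-5 at 48 h and Tbx20, Isl1 and Foxf1 at 72 h. It also lost Tbx5 at 120 h and Hand2 and Nkx2-5 at 144 h. Without replicate 2, Foxf1 was lost at 48 h and Tbx20, Isl1 and Foxf1 at 72 h. Tbx5 and Tbx20 were then also lost at 96 and 120 h, and Hand2 and Nkx2-5 at 144 h. Without replicate 3, Nkx2-5 and Foxf1 were lost at 48 h and Tbx20 and Foxf1 at 72 h. Tbx5 at 96 h, Tbx20 at 120 h, and Hand2, Nkx2-5 and Isl1 at 144 h were then lost too.

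Hand1 and Tbx20 were highest in mES cells and fell by 48 h. In WT cells the log2 change of Hand1 was −2.87 ± 0.23 (SE, edgeR adjusted p = 6.8e-17) and that of Tbx20 −1.55 ± 0.18 (adjusted p = 2.6e-11). Hand1 rose again in WT cells from 120 to 144 h, by 1.47 ± 0.24 (adjusted p = 1.2e-06). At that step p53KO–emiRFP cells changed by −0.11 ± 0.40 (adjusted p = 0.90). From 96 to 120 h Hand1 fell in p53KO–emiRFP cells by 1.58 ± 0.35 (adjusted p = 0.00019), while the mean of WT–mCherry cells went from 26.6 to 15.2 and that of WT–emiRFP cells from 37.3 to 51, a joint WT change of −0.20 ± 0.27 (adjusted p = 0.57). Mef2c rose from 48 to 72 h in WT cells by 2.71 ± 0.15 (adjusted p = 1.4e-22) and in p53KO–emiRFP cells by 1.83 ± 0.20 (adjusted p = 1.9e-11). Foxf1 came on from 72 to 96 h, by 4.45 ± 0.27 in WT cells (adjusted p = 7.3e-21) and by 2.89 ± 0.33 in p53KO–emiRFP cells (adjusted p = 1.3e-10). Isl1 also rose at that step in WT cells, by 1.41 ± 0.15 (adjusted p = 7.9e-12), and fell at the next by 1.22 ± 0.15 (adjusted p = 2.5e-10). Gata4 rose in WT cells by 0.82 ± 0.19 from 48 to 72 h and by 0.81 ± 0.18 from 120 to 144 h (both adjusted p = 0.00014). Whether the steps differed in size between genotypes was tested only from 120 to 144 h.

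The effect of p53 loss was measured as p53KO–emiRFP against WT–emiRFP cells, within each time point and with p values adjusted over all genes tested. In gastruloids the 2 populations came from different mosaics, so genotype, neighbour and seeded number cannot be told apart. Because both sorted populations are bulk samples, fewer cells of a type and less RNA per cell cannot be told apart. A gene with too few counts at a time point was left out of its test, which held for Hand2 before 120 h, Tbx5 before 96 h and Foxf1 at 0 and 72 h. At 0 h 1 of 6 tested genes differed (6.14% of all genes), at 48 h 2 of 7 (22.1%), at 72 h 2 of 6 (29.1%) and at 96 h 2 of 8 (23.3%). At 120 h 5 of 9 differed (51%), of which 4 were higher in p53KO–emiRFP cells (27.3%) and 1 lower (23.7%). At 144 h 5 of 9 differed (65.4%), with 2 higher (33.2%) and 3 lower (32.2%). At both late times the share of the 9 genes was near or below that of all genes, while their median log2 difference was 0.81 at 120 h, where that of all genes was 0.05, and −0.32 at 144 h, where it was 0.01.

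**Figure D2:**
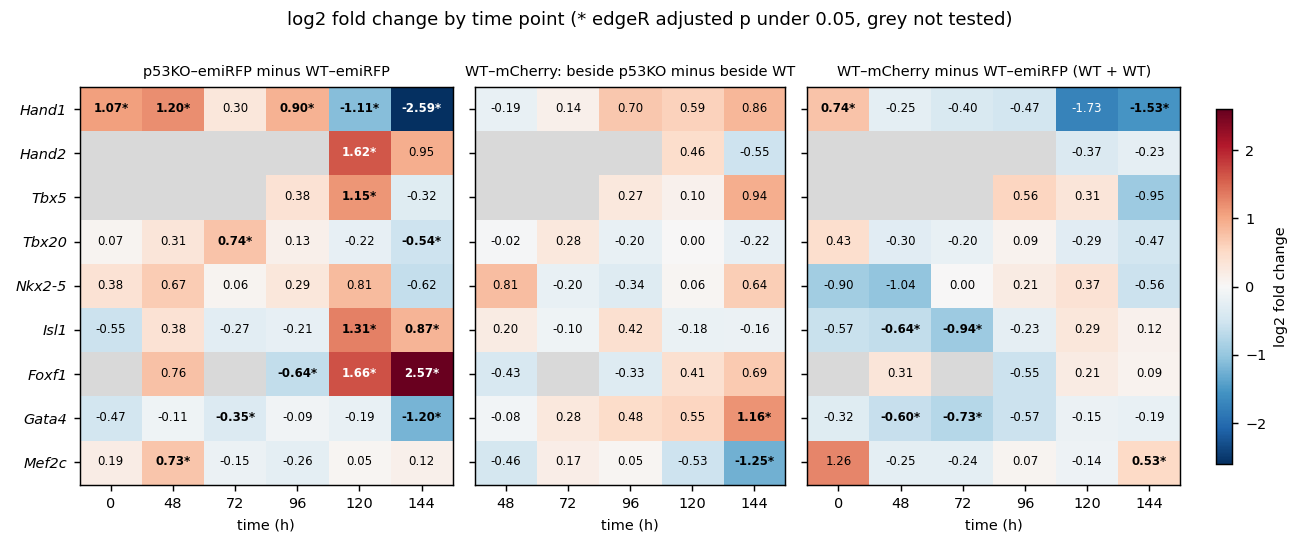
Log2 fold changes (colour and number) of the 9 genes (rows) by time in hours (columns) in 3 comparisons, with an asterisk for an edgeR adjusted p under 0.05 and grey for genes not tested. The left panel holds 17 calls, among them Foxf1 with 1.66 at 120 h and 2.57 at 144 h, while the middle panel holds 2, Gata4 with 1.16 and Mef2c with −1.25 at 144 h.

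Foxf1, a forkhead factor needed for splanchnic mesoderm and its vessels, had the largest positive difference between p53KO–emiRFP and WT–emiRFP cells among the 9 genes at 144 h, although its level fell in both from 120 h. At 96 h p53KO–emiRFP cells had 69.9, 72.4 and 94.0 normalized counts in replicates 1, 2 and 3. WT–emiRFP cells had more, with 117, 119 and 133. WT–mCherry cells had 68.8 to 96.7 with WT neighbours and 59.6 to 72.2 with p53KO neighbours. Both ranges overlapped with that of p53KO–emiRFP cells. At 120 h p53KO–emiRFP cells had 273, 312 and 340, WT–emiRFP cells 90.3, 91.1 and 110, while WT–mCherry cells had 110, 124 and 104 with WT neighbours and 113, 194 and 140 with p53KO neighbours. At 144 h the values were 189, 173 and 132 in p53KO–emiRFP cells and 34.5, 37.6 and 12.2 in WT–emiRFP cells. WT–mCherry cells then had 24.8, 44.3 and 17.5 with WT neighbours and 56.2, 60.3 and 27.7 with p53KO neighbours. At 120 and 144 h each p53KO–emiRFP library was above all 9 WT libraries. The log2 difference was −0.64 ± 0.16 at 96 h (adjusted p = 0.0080), 1.66 ± 0.18 at 120 h (adjusted p = 3.5e-06), which is 3.17-fold, and 2.57 ± 0.38 at 144 h (adjusted p = 3.9e-05), which is 5.94-fold. The late differences held under all alternatives. The early one was lost without replicate 1 (adjusted p = 0.137), without replicate 2 (0.0539) and in a fit of all 69 libraries (0.0517). The 2 WT clones did not differ detectably at 120 h, with a log2 difference of 0.21 and an interval from −0.16 to 0.58.

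Isl1, a LIM-homeobox factor of second heart field progenitors and motor neurons, stayed high for longer in p53KO–emiRFP cells. All 4 populations were high at 96 h, between 103 and 168 normalized counts. At 120 h p53KO–emiRFP cells still had 110, 121 and 118, while WT–emiRFP cells had 53.4, 42.6 and 45.3 and the 6 WT–mCherry libraries 45.1 to 62.3. At 144 h p53KO–emiRFP cells had 74.9, 65.1 and 56.3 and WT–emiRFP cells 35.4, 51.2 and 21.7. The groups did not overlap at either time. The log2 difference was 1.31 ± 0.16 at 120 h (adjusted p = 8.8e-06) and 0.87 ± 0.32 at 144 h (adjusted p = 0.029, or 0.20 without replicate 1). At 48 h Isl1 was higher in p53KO–emiRFP cells only with the replicate number as a block (adjusted p = 0.096 without and 0.034 with it, log2 difference 0.38 ± 0.16). Of the 15 motor neuron markers 11 were tested at 120 h, and 2 rose (27.3% of all genes) and 3 fell (23.7%), with a summed level of 2625 to 2875 in p53KO–emiRFP cells and 3069 to 3418 in WT–emiRFP cells. The highest gene of the sum was Mnx1 in p53KO–emiRFP cells, with a mean of 1167, and Stmn2 in WT–emiRFP cells, with 1509, a gene at 25857 in WT–emiRFP mES cells, so the sum is no measure of motor neurons alone. Their part in the Isl1 difference was not tested.

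Hand2 and Tbx5, a basic helix-loop-helix factor of the heart and limb and a T-box factor of the first heart field and forelimb, were higher in p53KO–emiRFP cells at 120 h, at low levels. Hand2 had 31.7, 16.3 and 22.1 normalized counts in p53KO–emiRFP cells at 120 h and 10.3, 7.75 and 4.62 in WT–emiRFP cells, without overlap. Tbx5 had 27.6, 49.8 and 23.1 against 13.3, 18.4 and 13.9, also without overlap. Tbx5 in WT–mCherry cells reached 23.7 beside WT cells and 24.4 beside p53KO cells, above the lowest p53KO–emiRFP library. In log2 terms the difference to WT–emiRFP cells was 1.62 ± 0.38 for Hand2 (adjusted p = 0.0028) and 1.15 ± 0.32 for Tbx5 (adjusted p = 0.0084, or 0.0697 without replicate 1). At 144 h Hand2 had 18.9, 37.1 and 22.3 against 13.1, 20.9 and 6.96, which overlapped. It was 0.95 ± 0.44 higher in log2 terms, past the threshold only with the replicate block (adjusted p = 0.070 without and 0.0083 with it). Tbx5 at 144 h had 13.8, 23 and 23.3 in p53KO–emiRFP cells and 26.1, 26.1 and 22.6 in WT–emiRFP cells, a log2 difference of −0.32 ± 0.32 (adjusted p = 0.39). The exons of Hand2 overlap the antisense gene Hand2os1, which had at most 5 counts in a library, and the sources do not say which strand setting the counts use.

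Hand1, the other Hand factor, was higher in p53KO–emiRFP cells at 0, 48 and 96 h and lower at 120 and 144 h. WT–emiRFP cells were the reference. In mES cells it was high in p53KO–emiRFP, with 305, 363 and 359 normalized counts, against 212, 123 and 152 in WT–emiRFP cells. WT–mCherry mES cells, which carry intact p53, had 340, 260 and 207, overlapping with both. The log2 difference to WT–emiRFP was 1.07 ± 0.21 for p53KO–emiRFP (adjusted p = 0.0082, or 0.227 without replicate 2 and 0.0889 without replicate 3) and 0.74 ± 0.21 for WT–mCherry (adjusted p = 0.042, or 0.356 without replicate 2, 0.0972 without replicate 3 and 0.0862 in a fit of these 2 groups). Both clones were thus above WT–emiRFP at 0 h. At 48 h p53KO–emiRFP cells had 75.2, 79.6 and 62.4, above the 18.3 to 34.6 of all 9 WT libraries, a log2 difference of 1.20 ± 0.19 (adjusted p = 0.00034). At 72 h they had 53, 50.7 and 47 and WT–emiRFP cells 48.8, 36.5 and 38.2, which overlapped (log2 difference 0.30 ± 0.24, adjusted p = 0.40). At 96 h they had 66.9, 87.3 and 57.8 and WT–emiRFP cells 39.1, 42.9 and 29.8, a log2 difference of 0.90 ± 0.21 (adjusted p = 0.0053, or 0.0631 without replicate 1).

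At 120 h the mean of Hand1 in p53KO–emiRFP cells was below that of WT–emiRFP cells, but not below those of WT–mCherry cells. WT–mCherry cells had 10.3 to 20.8 normalized counts beside WT cells and 17.1 to 26.8 beside p53KO cells. Both ranges overlapped with that of p53KO–emiRFP cells. p53KO–emiRFP cells had 27.6, 23.6 and 19.1 normalized counts and WT–emiRFP cells 86.2, 23.3 and 43.4, so the groups overlapped and replicate 1 of WT–emiRFP stood high. The log2 difference of −1.11 ± 0.39 (adjusted p = 0.029) became −0.64 (adjusted p = 0.239) without replicate 1, and its adjusted p was 0.131 without replicate 3. At 144 h p53KO–emiRFP cells had 17.2, 22 and 26.2 and WT–emiRFP cells 132, 121 and 141, without overlap. The log2 difference was −2.59 ± 0.44 (adjusted p = 0.00013), which is 6.03-fold lower, and it held under all alternatives. WT–mCherry cells beside WT cells, with 42.5, 48.9 and 44.3, lay between them and were −1.53 ± 0.40 below WT–emiRFP cells (adjusted p = 0.013, or 0.0964 without replicate 3). At 144 h 5 of the 6 tested trophoblast markers also fell in p53KO–emiRFP cells and none rose, with a summed level of 2843 to 3747 against 10022 to 11555 in WT–emiRFP cells, where 32.2% of all genes were lower. Tfap2c, a gene also at 4953 in WT–emiRFP mES cells, gave most of the WT–emiRFP sum. Its means at 144 h were 1660 in p53KO–emiRFP and 7663 in WT–emiRFP cells. The part of trophoblast cells in the Hand1 difference was not tested.

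**Figure D3:**
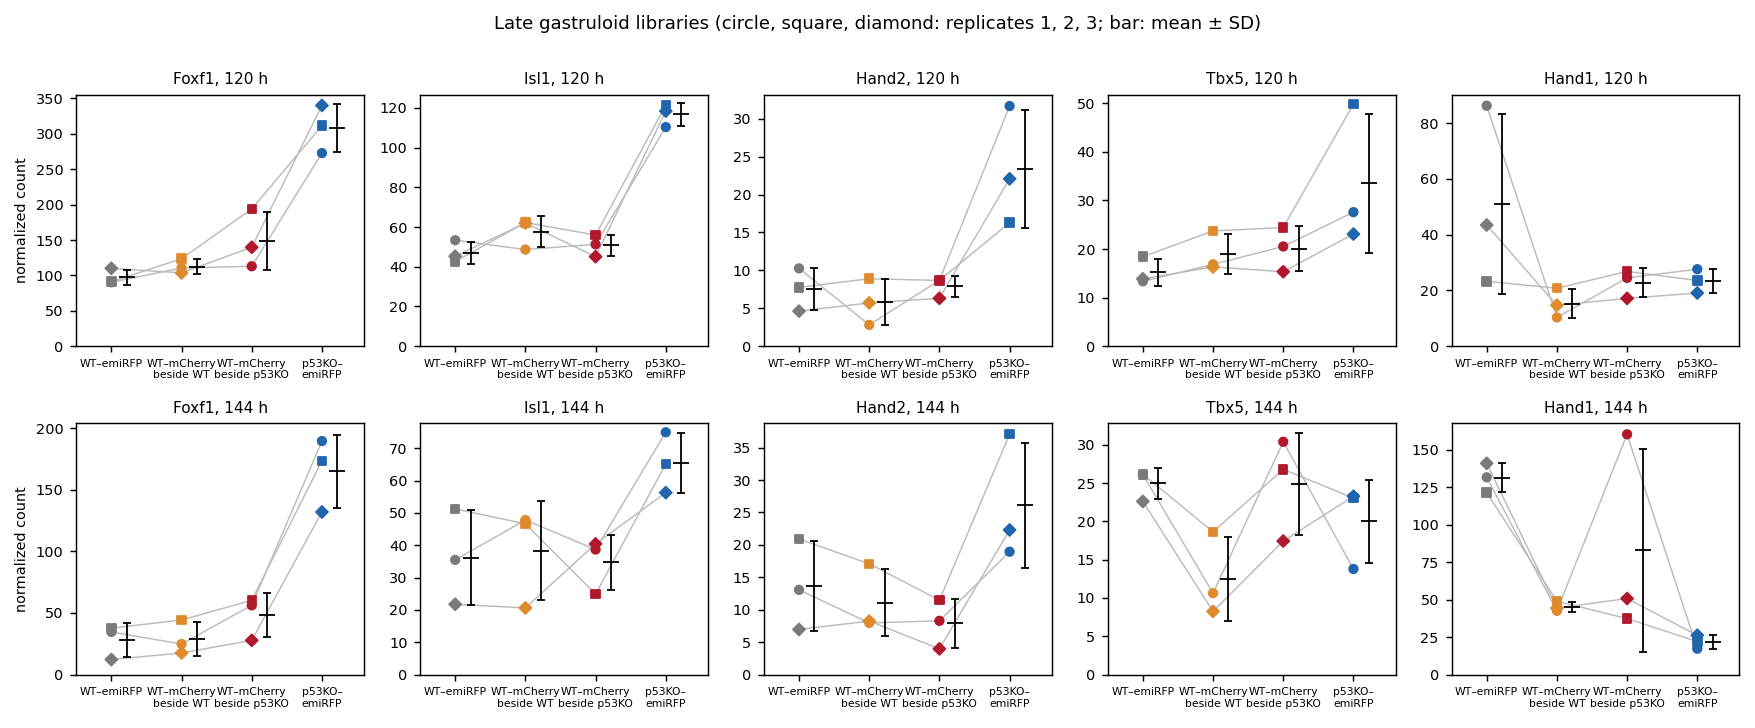
Normalized counts (vertical axes, from 0) at 120 h (top) and 144 h (bottom) in the 4 sorted populations, with 1 point per library, grey lines joining same-numbered replicates and bars for mean ± SD of 3 replicates. Foxf1 and Isl1 in p53KO–emiRFP cells lay above all WT libraries at both times, and Hand1 at 144 h shows 1 WT–mCherry library at 160 beside p53KO cells.

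Nkx2-5, the NK homeobox factor of the early heart, did not differ past the threshold by p53 status at any time with all replicates and no block. At 120 h it had 15.3, 34.4 and 18.1 normalized counts against 11.3, 19.4 and 8.32, higher in 3 of 3 same-numbered pairs. The log2 difference was 0.81 ± 0.40 (adjusted p = 0.11, and 0.024 with the replicate block). At 144 h it had 16.4, 21 and 19.4 against 32.7, 39.7 and 15.6, a log2 difference of −0.62 ± 0.31 (adjusted p = 0.092, or 0.0210 without replicate 3). Tbx20, a T-box factor of the heart tube, was higher in p53KO–emiRFP cells at 72 h, with 39.7, 62.2 and 60.5 against 25.6, 39.5 and 31.6. That log2 difference, 0.74 ± 0.23 (adjusted p = 0.027), was lost without any 1 replicate (0.0672 to 0.153) and in a fit of the 2 groups (0.0513). At 144 h Tbx20 was −0.54 ± 0.23 lower (adjusted p = 0.048), which did not pass with the block (0.056), in a fit of the 2 groups (0.0662), in DESeq2 (0.123), without the low-count filter (0.138), in a fit of all libraries (0.0532), without replicate 2 (0.164) or without replicate 3 (0.438, log2 difference −0.28). Its values were 31.0, 24.0 and 23.3 against 30.8, 36.6 and 46.9, which overlapped.

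Gata4, a zinc finger factor of cardiac mesoderm and endoderm, was lower in p53KO–emiRFP cells at 144 h. It had 228, 221 and 193 normalized counts there and 438, 712 and 333 in WT–emiRFP cells, without overlap. Its difference was −1.20 ± 0.40 on the log2 scale (adjusted p = 0.017, or 0.0914 without replicate 1). At 72 h the values were 360, 353 and 347 against 441, 468 and 444, a log2 difference of −0.35 ± 0.08 (adjusted p = 0.0036), which was lost without replicate 1 (0.0501), without replicate 2 (0.0566) and in a fit of all libraries (0.343). In mES cells Gata4 had 215, 193 and 228 in p53KO–emiRFP and 308, 266 and 307 in WT–emiRFP cells, a log2 difference of −0.47 ± 0.13 that passed only with the block (adjusted p = 0.052 without and 0.018 with it) and in DESeq2 (0.0116). WT–mCherry cells had 224 to 246 as mES cells, and beside WT cells 263 to 282 at 72 h and 217 to 688 at 144 h. These values overlapped with p53KO–emiRFP cells at 0 and 144 h and were below them at 72 h. At 144 h 9 of the 14 tested endoderm markers fell in p53KO–emiRFP cells and 1 rose (32.2% and 33.2% of all genes), with a summed level of 3951 to 5168 against 7267 to 11219. Their part in the Gata4 difference was not tested.

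Mef2c, a MADS box factor of muscle, heart and endothelium, was higher in p53KO–emiRFP cells at 48 h, with 30.3, 45.3 and 49.3 normalized counts against 23.6, 24.3 and 27.7. That log2 difference of 0.73 ± 0.24 (adjusted p = 0.039) was lost without any 1 replicate (0.0850 to 0.216), in DESeq2 (0.0935), without the low-count filter (0.0602) and in a fit of the 2 groups (0.0608). At 144 h it had 104, 102 and 109 against 93.3, 106 and 90.4, a log2 difference of 0.12 ± 0.17 with an interval from −0.21 to 0.46.

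Whether these differences changed from 120 to 144 h was tested as an interaction of genotype and time. For Hand1, Tbx5 and Gata4 the p53KO–emiRFP minus WT–emiRFP difference was more negative at 144 h than at 120 h, where 16.9% of all genes changed in either direction and 6.63% downward. The change was −1.48 ± 0.50 for Hand1 (adjusted p = 0.033), −1.47 ± 0.51 for Tbx5 (adjusted p = 0.036) and −1.02 ± 0.36 for Gata4 (adjusted p = 0.043), all on the log2 scale. With the replicate block the number rose from 3 to 5, and the share of all genes to 22%, adding Nkx2-5 with −1.43 ± 0.56 (adjusted p = 0.071 without and 0.048 with the block) and Foxf1 with 0.91 ± 0.35 (0.069 and 0.045). Each of the 3 was lost without at least 2 of the replicates, with adjusted p values of 0.249 and 0.135 for Hand1 without replicates 2 and 3, 0.240 and 0.243 for Tbx5 without replicates 1 and 2, and 0.263, 0.0577 and 0.0519 for Gata4 without replicates 1, 2 and 3.

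The difference by neighbour was measured in WT–mCherry cells, beside p53KO cells against beside WT cells. Fewer partner cells were seeded in WT + p53KO than in WT + WT gastruloids. Genotype of the neighbour and seeded number therefore cannot be told apart here either. Few of the 9 genes differed. None of 7 tested genes differed at 48 h (0.0736% of all genes), of 6 at 72 h (0.559%), of 8 at 96 h (3.92%) or of 9 at 120 h (5.94%) by edgeR's test without a block. At these times 0, 1, 3 and 2 genes had an unadjusted p under 0.05, and DESeq2 called Gata4 at 96 h alone (adjusted p = 0.0256). At 144 h 2 of 9 genes differed (25.6%), 1 higher (10.1%) and 1 lower (15.5%). With the replicate block the calls over all times rose from 2 to 8, of which 7 were higher beside p53KO cells. The share of all genes called rose with the block too, to 20.8% at 96 h, 20.2% at 120 h and 37.3% at 144 h. The added ones were Hand1 at 96 h (log2 difference 0.70 ± 0.23, adjusted p = 0.11 without and 0.022 with the block), Isl1 at 96 h (0.42 ± 0.13, 0.093 and 0.011), Gata4 at 96 h (0.48 ± 0.15, 0.082 and 0.0011), Gata4 at 120 h (0.55 ± 0.26, 0.26 and 0.0067), Tbx5 at 144 h (0.94 ± 0.33, 0.053 and 0.028) and Foxf1 at 144 h (0.69 ± 0.40, 0.23 and 0.032).

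Gata4 rose in WT–mCherry cells beside p53KO cells. At 72 h it had 322, 349 and 312 normalized counts there and 269, 263 and 282 beside WT cells. At 96 h the values were 383, 339 and 282 against 243, 280 and 196, and at 120 h 347, 453 and 294 against 178, 384 and 188. At 144 h they were 950, 1398 and 559 against 380, 688 and 217. In every pair of the same number from 72 h on, the library beside p53KO cells was higher, and at 144 h the groups overlapped because replicate 2 was highest and replicate 3 lowest in both. The log2 difference at 144 h was 1.16 ± 0.38 (adjusted p = 0.038), which is 2.24-fold, and its adjusted p with the block was 6.3e-05. It was lost without replicate 1 (adjusted p = 0.230) and in a fit of the 2 groups (0.0695). p53KO–emiRFP cells of the same gastruloids had 193 to 228. With the emiRFP-clone RNA subtracted, the log2 difference was 1.27 by H2bc14 and 1.39 by H2bc21.

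Of 16 endoderm markers 14 were tested at 144 h, and 6 were higher beside p53KO cells (10.1% of all genes) and none lower (15.5%), with a summed level of 10205, 16279 and 7514 in replicates 1, 2 and 3, against 6956, 9613 and 5486 beside WT cells. The highest gene of this sum was Cldn6, with means of 3835 and 2620, and the list summed to 15256 in WT–emiRFP mES cells, where Trh gave 12355, so the sum is no measure of endoderm alone. Among the markers that rose were Hnf4a, a hepatocyte and visceral endoderm factor (log2 difference 1.25 ± 0.33, adjusted p = 0.015), and Spink1 (1.85 ± 0.53, adjusted p = 0.022). No endoderm marker was at a count of 0 in these 6 libraries. Gata6, the close relative of Gata4 and chosen here after its values were seen, had 440, 734 and 282 normalized counts beside p53KO cells and 248, 354 and 145 beside WT cells. The part of endoderm cells in the Gata4 difference was not tested.

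Mef2c fell in WT–mCherry cells beside p53KO cells. At 144 h it had 51.6, 73.7 and 50.7 normalized counts there and 137, 118 and 163 beside WT cells, without overlap. Its log2 difference was −1.25 ± 0.17 (adjusted p = 0.00033), which is 2.37-fold lower, and it held under all alternatives, with −1.41 and −1.64 after subtraction of emiRFP-clone RNA by H2bc14 and H2bc21. At 120 h the values, 39.5, 35.5 and 40.6 against 55.2, 47.5 and 63.6, did not overlap either, with a log2 difference of −0.53 ± 0.25 (adjusted p = 0.24). The other populations at 144 h lay between, with 90.4 to 106 in WT–emiRFP and 102 to 109 in p53KO–emiRFP cells. Of 16 endothelial markers 8 were lower beside p53KO cells at 144 h (15.5% of all genes) and 1 was higher (10.1%), with overlapping summed levels of 7043 to 7934 and 7251 to 7904. Most of that sum was Pecam1, with means of 4920 and 4144, a gene also at 4453 in WT–emiRFP mES cells. Of the 8 neural crest markers tested 2 were lower and none higher, with sums of 4464 to 5955 beside p53KO cells and 9016 to 10280 beside WT cells. Their part in the Mef2c difference was not tested.

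**Figure D4:**
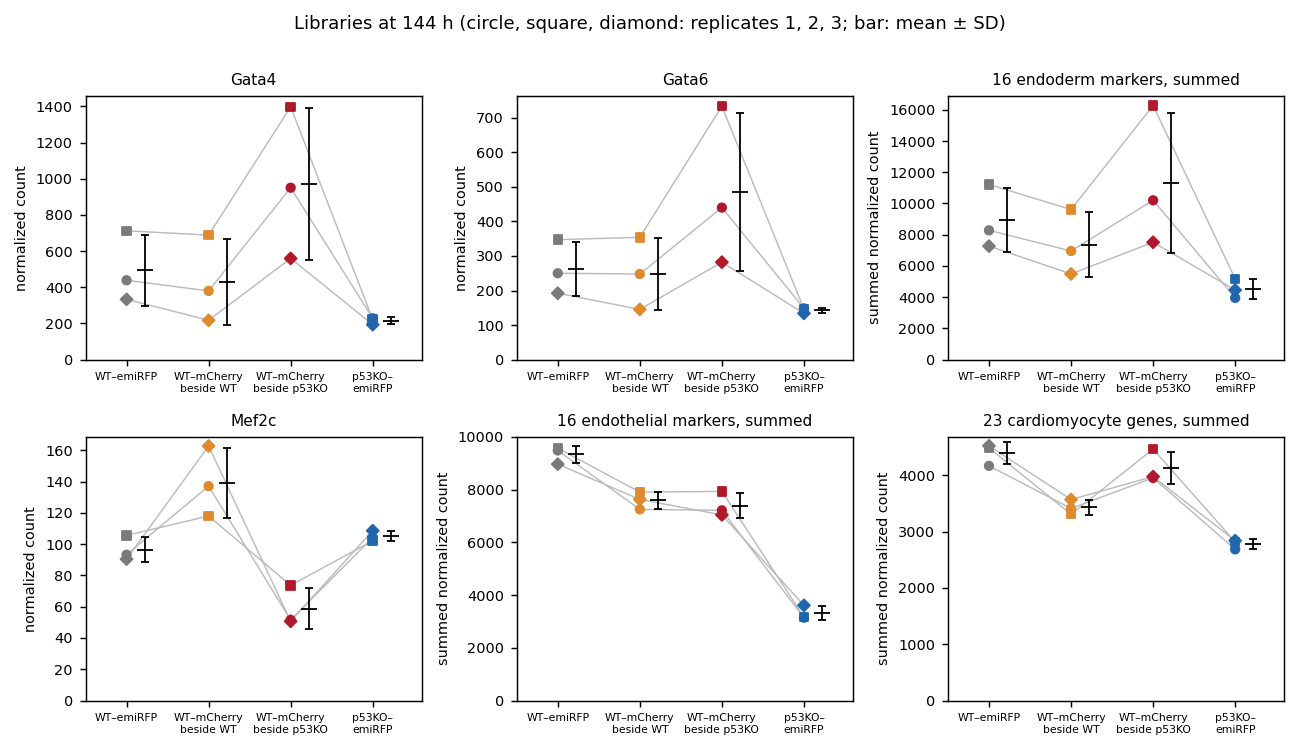
Normalized counts of Gata4, Gata6 and Mef2c, and summed normalized counts of 16 endoderm, 16 endothelial and 23 cardiomyocyte genes (vertical axes, from 0), in the 12 libraries at 144 h, with grey lines joining same-numbered replicates and bars for mean ± SD of 3 replicates. Gata4, Gata6 and the endoderm sum were higher beside p53KO cells in 3 of 3 pairs, and Mef2c was lower in 3 of 3.

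Hand1 in WT–mCherry cells at 144 h rested on 1 library. Beside p53KO cells it had 160, 37.3 and 50.7 normalized counts and beside WT cells 42.5, 48.9 and 44.3. The log2 difference was 0.86 ± 0.40 (adjusted p = 0.14). It was −0.079 without replicate 1, and it passed without the low-count filter (adjusted p = 0.0013), in a fit of all libraries (0.0303) and with subtraction by H2bc21 (0.0294). In that library H2bc14 had 926 normalized counts, against 130 and 456 in the others, while Hand1 in p53KO–emiRFP cells was 17.2 to 26.2. The part of that RNA in the Hand1 value was not tested. For Foxf1 the log2 differences by neighbour were 0.41 ± 0.18 at 120 h (adjusted p = 0.22) and 0.69 ± 0.40 at 144 h, and they became 0.30 and 0.22 when emiRFP-clone RNA was subtracted by H2bc14 and −0.061 and −0.46 by H2bc21. Whether the neighbour difference changed from 120 to 144 h was tested for all 9 genes, and none passed (7.62% of all genes did, 0 of the 9 in DESeq2 and 1 with an unadjusted p under 0.05), Mef2c with −0.72 ± 0.28 (adjusted p = 0.11) and Gata4 with 0.61 ± 0.35 (adjusted p = 0.33).

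The 2 WT clones of WT + WT gastruloids give the size of differences that arise without p53 loss. WT–mCherry and WT–emiRFP cells differed in 1 of 6 tested genes at 0 h (11.1% of all genes), 2 of 7 at 48 h (8.9%), 2 of 6 at 72 h (7.64%), none of 8 at 96 h (2.15%), none of 9 at 120 h (1.22%) and 2 of 9 at 144 h (23.8%). At 96 and 120 h 2 and 1 of the genes had an unadjusted p under 0.05, and DESeq2 called 1 gene at each, Gata4 at 96 h (adjusted p = 0.0072) and Hand1 at 120 h (0.0067). Gata4 was lower in WT–mCherry cells, with 159, 180 and 145 normalized counts against 261, 260 and 212 at 48 h, and 269, 263 and 282 against 441, 468 and 444 at 72 h. This log2 difference was −0.60 ± 0.12 at 48 h (adjusted p = 0.0062) and −0.73 ± 0.08 at 72 h (adjusted p = 7.9e-05). The first was lost without replicate 1 (0.136) or 2 (0.0614), and both in a fit of all libraries (0.229 and 0.0715). Isl1 was also lower, by −0.64 ± 0.17 at 48 h (adjusted p = 0.029) and −0.94 ± 0.25 at 72 h (adjusted p = 0.033), which were lost without any 1 replicate (0.0618 to 0.240 at 48 h and 0.0538 to 0.329 at 72 h).

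At 144 h Mef2c was 0.53 ± 0.17 higher in WT–mCherry than in WT–emiRFP cells (adjusted p = 0.034, or 0.204 without replicate 1 and 0.291 without replicate 3). With the replicate block 11 differences between the WT clones passed in place of 7, and of all genes 15.9% passed at 96 h, 10.8% at 120 h and 33.9% at 144 h. The added ones, all lower in WT–mCherry cells, were Hand1 at 120 h (log2 difference −1.73 ± 0.42, adjusted p = 0.062 without and 0.0085 with the block), Foxf1 at 96 h (−0.55 ± 0.16, 0.087 and 0.0055), Gata4 at 96 h (−0.57 ± 0.14, 0.062 and 0.00028) and Tbx5 at 144 h (−0.95 ± 0.34, 0.054 and 0.028). For Foxf1 and Isl1 at 120 and 144 h, where p53KO–emiRFP cells were higher, no difference between the WT clones passed.

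Other genes of these lineages moved in both directions in p53KO–emiRFP cells. Of 25 further lateral plate genes 23 were tested at 120 h, of which 8 were higher and 6 lower than in WT–emiRFP cells, and at 144 h 15 of 25 were higher and 5 lower. Of all genes 27.3% were higher and 23.7% lower at 120 h, and 33.2% and 32.2% at 144 h. The homeobox gene Msx1, a target of BMP signals, was higher at both times, with log2 differences of 1.69 ± 0.16 (adjusted p = 7.4e-07) and 2.67 ± 0.19 (adjusted p = 2.4e-08). The limb T-box genes Tbx4 and Tbx3 were lower, at 144 h by 3.26 ± 0.19 (adjusted p = 5.6e-09) and 1.90 ± 0.12 (adjusted p = 1.1e-08) on the log2 scale. Tbx3 averaged 4223 normalized counts in WT–emiRFP cells at 144 h and 7387 in WT–emiRFP mES cells, so it is no measure of limb or lateral plate alone. The median log2 difference of the list was 0.15 at 120 h and 1.07 at 144 h, and that of all genes 0.05 and 0.01.

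Of 22 further cardiac progenitor genes 21 were tested at both times, of which 11 were higher and 4 lower in p53KO–emiRFP cells at 120 h (27.3% and 23.7% of all genes), and 14 and 4 at 144 h (33.2% and 32.2%). Their median log2 difference was 0.56 and 1.42. Aplnr, an apelin receptor gene of early mesoderm, averaged 3006 ± 461 normalized counts (SD, n = 3) against 413 ± 58.7 at 120 h, and its log2 difference was 2.87 ± 0.18 (adjusted p = 2.1e-08). Foxc2, a forkhead gene that the paraxial mesoderm list also holds, was 4.27 ± 0.29 higher at 144 h (adjusted p = 1.8e-08). All 11 paraxial mesoderm markers were higher at 144 h (33.2% of all genes), with summed levels of 31164 to 39580 against 5060 to 6740.

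The list of 23 cardiomyocyte genes did not move as 1 group. At 144 h 19 were tested, and 6 were higher (33.2% of all genes) and 10 lower (32.2%) in p53KO–emiRFP cells, with a summed level of 2686 to 2839 against 4167 to 4523. Myocd, a coactivator of smooth and cardiac muscle genes, was 4.77 ± 0.46 higher (adjusted p = 5.7e-07), and Actc1, the cardiac actin gene, 2.34 ± 0.43 (adjusted p = 0.00027). Ttn was lower by 2.85 ± 0.27 and Myh6 by 1.90 ± 0.12 on the log2 scale (adjusted p = 5.7e-07 and 1.1e-08). Ttn was also the highest gene of this list in mES cells, with a mean of 2035 normalized counts in the WT–emiRFP clone. In WT–mCherry cells beside p53KO cells 8 of the 19 were higher than beside WT cells (10.1% of all genes) and 2 lower (15.5%), and of 7 tested skeletal muscle genes 1 was higher and 2 were lower.

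Across the 23 group means, on the scale of log2(normalized count + 1), the 3 genes most alike among the 9 were Hand2, Tbx5 and Foxf1. Pearson's r was 0.83 for Hand2 and Tbx5, 0.80 for Foxf1 and Tbx5 and 0.76 for Foxf1 and Hand2, and 0.74 for Hand1 and Tbx20. Isl1 and Tbx20 were least alike, with −0.65. Among 15929 genes the closest pattern to that of Foxf1 was Kif26b (r = 0.958), then Olfml2a and Mylip, and to that of Mef2c Cntfr (0.958), then Epha7 and Efemp1. Hand2 was closest to Fndc3a (0.931), Tbx5 to Msh5 (0.926), Hand1 to Pura (0.907), Isl1 to Gm26793 (0.905), Tbx20 to Extl1 (0.904), Nkx2-5 to Cdc42ep2 (0.858) and Gata4 to Siae (0.804). The points share clones, experiments and time points, so these values are descriptions only.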

How the data were processed

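The deposited table holds raw counts of reads per gene, which the authors made from poly-A RNA-seq reads with Trim Galore 0.6.7 and STAR 2.7.11b on GRCm38.p6, keeping uniquely mapped reads. The strand column they took is not given in the sources used here. The 9 genes and the marker lists were chosen with earlier results of these data known. From the counts, size factors were computed by median ratios over the 69 libraries, and edgeR 4.0.16 (R 4.3.3) gave quasi-likelihood tests, with filterByExpr and Benjamini-Hochberg adjustment over all genes tested at a threshold of 0.05. A fit held the libraries of 1 time point (12, or 9 at 0 h), or all 69 for steps and interactions. DESeq2 1.42.0, TMM scaling, no low-count filter, a replicate block, leaving out replicates, other sample sets and subtraction of emiRFP-clone RNA were tried. Intervals are 95%, from the standard error times 1.96.

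Replicates came from experiments done at separate times. Libraries with the same number deviated together from the means of their groups, with a median correlation of 0.35 over 51 pairs (0.04 to 0.69), and 48 pairs were above 0.1, so the numbers were taken to pair the libraries. All 9 genes were named. From the marker lists up to 2 rises and 2 falls per comparison could be named, among genes with a mean of at least 50 normalized counts, and for each of the 9 genes the 3 most alike.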

Additional observations from a re-analysis of the deposited data

Results flagged for a closer look

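For 3 genes the difference between p53KO–emiRFP and WT–emiRFP cells changed from 120 to 144 h by a test of the change itself. The change in log2 difference was −1.48 for Hand1, −1.47 for Tbx5 and −1.02 for Gata4. Tbx5 was higher in p53KO–emiRFP cells at 120 h and not detectably different at 144 h, whereas Hand1 and Gata4 were lower at 144 h. None of the 3 calls held when each replicate was left out in turn.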

How the results depend on the processing

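Of the 17 differences between p53KO–emiRFP and WT–emiRFP cells, 6 passed in every setting, namely Hand1 at 48 and 144 h, Hand2 at 120 h, Isl1 at 120 h and Foxf1 at 120 and 144 h. Their number was 8 to 13 with 1 replicate left out. Of the 2 neighbour differences in WT–mCherry cells Mef2c passed in every setting. Their number was 7 without the low-count filter, 8 with the replicate block, 1 in fits of the 2 groups alone, 5 with emiRFP-clone RNA subtracted by H2bc21, and 1 to 3 with 1 replicate left out. None of the 7 differences between WT clones passed in every setting, and their number was 11 without the filter, 11 with the replicate block, 4 in fits of the 2 groups and 2 to 4 with 1 replicate left out. The 3 changes from 120 to 144 h in the p53KO difference became 5 without the filter, 5 with the replicate block and 0 to 1 with 1 replicate left out, and the 0 neighbour changes became 1 without the filter. The 27 steps in WT cells became 18 to 20 and the 19 in p53KO–emiRFP cells 16 to 18 with 1 replicate left out. Among steps in WT cells the replicate block added Gata4 by 48 h and lost Foxf1 by 72 h, and beside those and the ones given above it changed no other call. Signs turned for neighbour values that did not pass in the test as reported, some of which passed in other settings, Hand1 at 144 h (−0.079 to 1.26 with 1 replicate left out) and Foxf1 at 120 and 144 h (−0.061 and −0.46 with subtraction by H2bc21). Leaving out a replicate removes a library from each group, and for other settings the cause was not tested. Hand2, Tbx5 and Nkx2-5 had few counts, which limits their precision.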

Other observations

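Fendrr, the non-coding gene beside Foxf1, was chosen after its values were seen. At 120 h it had 34.7, 31.7 and 25.1 normalized counts in p53KO–emiRFP cells and 10.3, 16.5 and 12.9 in WT–emiRFP cells, without overlap.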
